A study of Mus musculus with 4 samples.

Results

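Mybl1, Fam168a, Erbb2, Ndc1, Dgka and Rprd1a are 6 genes with many SRSF1 binding sites and few SRSF2 sites in mouse embryonic fibroblasts (MEFs), cultured cells of the embryo's connective tissue. Sites were mapped by CLIP-seq, in which ultraviolet light crosslinks proteins to RNA, 1 protein is precipitated and the attached RNA fragments are sequenced. The genes were chosen by their share of SRSF1 among all listed peaks, so that share describes how they were picked. They held 74 peaks, 61 of SRSF1 and 13 of SRSF2, out of 107319 in the series. They are 6 of 528 genes with a RefSeq name and at least 10 peaks of both proteins together.

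The MEF lines were tetracycline-repressible lines for SRSF1 or SRSF2 and were grown without tetracycline. An antibody against the HA tag served for both proteins. Each protein was mapped in its own line, so protein and cell line cannot be told apart. Neither line received an siRNA as far as the labels of these 2 samples say. Another 2 SRSF1 libraries, made after transfection with control siRNA or with siRNA to deplete SRSF2, were not analysed here. With 1 library per protein there is no replicate error, and all values below describe these 2 libraries. Intervals are exact (Clopper-Pearson) 95% binomial intervals that cover counting error only, and read depth is unknown.

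SRSF1 and SRSF2 belong to the SR proteins, which join RNA recognition domains to a tail rich in arginine and serine. They bind exons and other parts of the pre-mRNA, help the splicing machinery to recognise nearby splice sites, and can promote or lower the use of an exon. SRSF1 is known to favour purine-rich RNA, whereas SRSF2 accepts sites rich in either C or G. Many transcripts are bound by both, which makes a transcript with sites of mostly 1 of them a place to see where their binding parts. The study's title names cooperation and competition between SR proteins in regulated splicing.

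Of 16 fibroblast markers, 4 had a named peak: Col1a1 with 55 SRSF1 and 52 SRSF2 peaks, Col6a1 with 24 of each, Thbs1 with 23 and 10, and Postn with 13 and 2. None of 23 epithelial, haematopoietic, endothelial, neuronal and skeletal muscle markers had one. Genes with a name hold 15.8% of SRSF1 and 16.0% of SRSF2 peaks, so a marker without a named peak may lie in an unnamed unit. Peak lists do not give RNA levels, so a gene with more RNA cannot be told apart from one bound more often. Coordinates are on mm9 and counted from 1. The genome reference used here was of a different build, so no exon, intron or untranslated region was assigned to a peak and no peak sequence is shown.

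Peak counts set the members apart, as the choice required. Mybl1 had 9 SRSF1 peaks and 1 SRSF2 peak, a share of 90% (55.5 to 99.7). Fam168a had 15 and 2 (88.2%, 63.6 to 98.5). Both proteins bound each of these genes, but SRSF2 at very few listed places. Erbb2 had 10 and 2 (83.3%, 51.6 to 97.9) and Ndc1 9 and 2 (81.8%, 48.2 to 97.7). Dgka and Rprd1a had 9 and 3 each (75%, 42.8 to 94.5), and their intervals reach below the 47.5% that SRSF1 makes up of all peaks. At least 3 SRSF1 peaks for each SRSF2 peak were found in 9 of the 528 genes (1.70%), 6 of them the members. The interval lay above the overall share in 12 of the 528 (2.27%), among them 4 of the 6 members. That count of members fell to 1 with peaks within 50 nt merged (Fam168a), to 3 with the highest peak number of each list in place of the listed peaks (Fam168a, Mybl1 and Ndc1) and to 0 at scores of 8 or more. Neither count supports anything, because the same counts chose the genes.

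**Figure D1:**
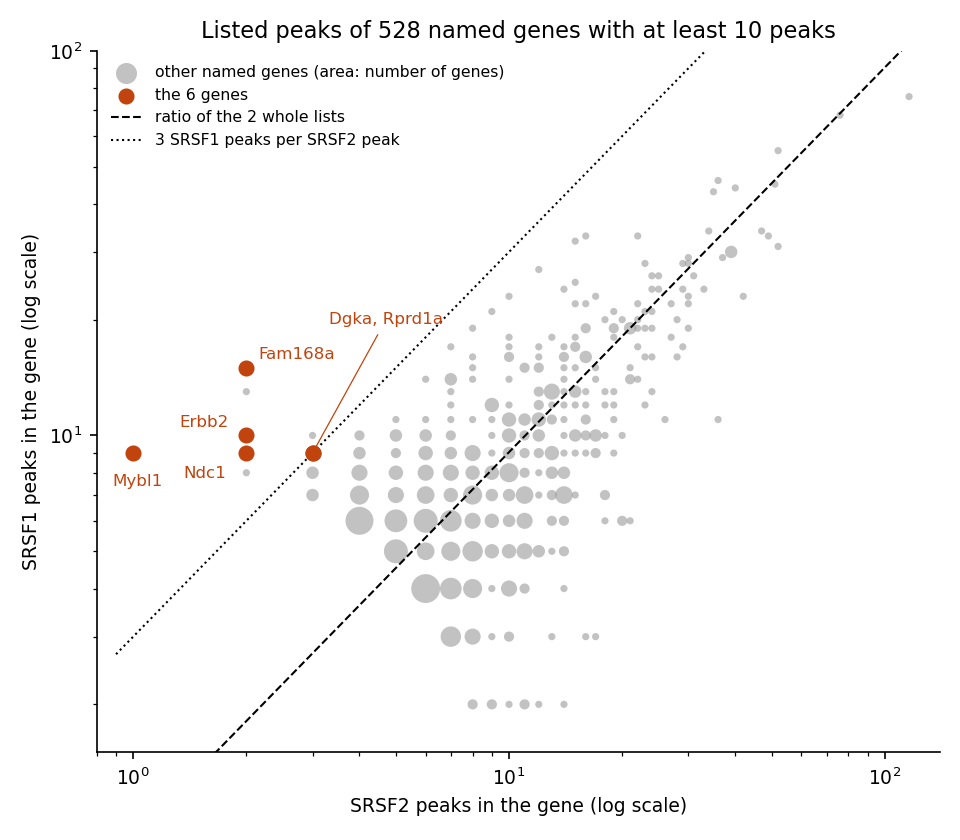
Listed SRSF1 peaks (vertical, log scale) against SRSF2 peaks (horizontal, log scale) in 528 named genes with at least 10 peaks, where the area of a grey point is the number of genes at that place. The 6 orange genes lie on or above the dotted line of 3 SRSF1 peaks per SRSF2 peak; the dashed line is the ratio of the whole lists.

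The other genes with 3 to 1 or more were Postn, the matrix protein periostin, with 13 and 2 peaks, Mboat1 with 8 and 2, and Elavl1, an RNA-binding protein, with 10 and 3. Just below came, among others, Slc30a4 and Tab1 with 8 and 3 peaks each (72.7%). Ppme1 and St3gal5 followed with 10 and 4 (71.4%), and Pnpt1 with 17 and 7 (70.8%). Over all 528 genes the median gene had 8 SRSF1 and 9 SRSF2 peaks and a share of 46.7%. The members had a median of 9 SRSF1 and 2 SRSF2 peaks. Both medians follow from the choice of genes with few SRSF2 peaks and from the minimum of 10 peaks, so they are a description only.

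Each member had all of its peaks in 1 host unit, the RefSeq transcript that the authors put in the peak name. No peak of another unit, on either strand, lay between its first and last peak. Positions below follow the RNA from 5′ to 3′, which runs towards lower coordinates for Mybl1, Dgka and Rprd1a on the minus strand. A stretch is a run of SRSF1 peaks of a gene whose neighbouring midpoints lie at most 1000 nt apart. An SRSF2 peak is counted with a stretch when its midpoint is within 1000 nt of an SRSF1 midpoint there. The score is the authors' own whole number for a peak, with a lowest value of 4 and a median of 8 in both lists, and what it measures was not stated (not given in the sources used here).

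Fam168a, whose product is little characterised, was bound by SRSF1 over 133 kb (chromosome 7, plus strand, peaks from 107855302 to 107988672). Its SRSF2 peaks lay only at the 5′ end of that range. The SRSF2 peak at 107855302 to 107855336 had a score of 8 and shared 16 nt with the first SRSF1 peak, 107855321 to 107855343, of score 6. The other SRSF2 peak, 107856057 to 107856062, had a score of 5 and lay 713 nt further on. Downstream of both, 14 SRSF1 peaks had no listed SRSF2 peak beside them. The next SRSF1 peaks came 80.0 kb further on, at 107935362 to 107935372 (score 4) and 107935540 to 107935551 (score 5). A single peak followed at 107961448 to 107961468 (score 7), and another at 107984572 to 107984605, which had the highest SRSF1 score of the gene, 8.

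The densest binding of Fam168a was at the 3′ end of its range. A stretch of 1328 nt, 107986078 to 107987405, held 9 of its 15 SRSF1 peaks (60%, 32.3 to 83.7) and no SRSF2 peak of any unit. Scores in that stretch ran from 4 to 6, below the median of the whole list. Most were 4, under the lowest SRSF2 score listed in the gene, 5. Within that stretch, 4 successive midpoints followed the one before at 102, 93, 87 and 105 nt. Its other steps were 14, 613.5, 13 and 281 nt. The peak after the step of 105 nt, 107986477 to 107986496, had a score of 6. The final SRSF1 peak of the gene, 107988655 to 107988672, had a score of 4 and lay 133 kb from the nearest SRSF2 midpoint on the same strand. The median SRSF1 peak of Fam168a lay 130142 nt from an SRSF2 peak of that strand, the longest such distance of the 528 genes.

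Mybl1 encodes A-Myb, a transcription factor best known from male germ cells. Its 9 SRSF1 peaks were spread singly or in pairs over 23.9 kb (chromosome 1, minus strand, 9659494 to 9683431), in 7 stretches of at most 2 peaks. Going 5′ to 3′, SRSF1 scores were 5 and 8 in the first pair (9683424 to 9683431 and 9683380 to 9683419), then 6 at 9675821 to 9675841 and 6 at 9673217 to 9673236. All 5 peaks further 3′, between 9659494 and 9671957, had a score of 5. The single SRSF2 peak, 9673226 to 9673234, had a score of 5 and lay wholly within the SRSF1 peak at 9673217 to 9673236, with 9 nt shared. That site is inside the range, with 3 SRSF1 peaks on its 5′ side and 5 on its 3′ side. The highest SRSF1 score, 8, was at the 5′ end, separated from the SRSF2 peak by 10145 nt.

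Erbb2 encodes a receptor tyrosine kinase of the epidermal growth factor receptor family, a partner in receptor pairs that drive growth signals. Its SRSF2 peaks lay only in the first of 5 SRSF1 stretches. That stretch, 969 nt long (chromosome 11, plus strand, 98283393 to 98284361), held 4 SRSF1 peaks with scores of 8, 8, 7 and 7. The second of them, 98283458 to 98283476, and the SRSF2 peak 98283459 to 98283477, of score 9, shared 18 nt and their midpoints were 1 nt apart. The fourth, 98284337 to 98284361 of score 7, contained the SRSF2 peak 98284339 to 98284345, also of score 7. Both SRSF2 peaks of Erbb2 thus sat on SRSF1 peaks. The other 6 SRSF1 peaks lay 3453 to 13441 nt from the nearest SRSF2 midpoint. They had scores of 7 at 98287784 to 98287806, 8 at 98294266 to 98294274, and 6 at each of the 4 peaks from 98294460 to 98297791. Scores of SRSF1 without SRSF2, at 6 to 8, therefore overlapped those of the shared stretch, at 7 to 8.

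Ndc1 encodes a membrane protein that anchors the nuclear pore complex in the nuclear envelope. It was the member in which no SRSF1 peak met an SRSF2 peak. One SRSF2 peak lay 5′ of all SRSF1 peaks (chromosome 4, plus strand, 107041412 to 107041420, score 8), separated from the first by 5368 nt. The other, 107056246 to 107056274 with a score of 10, lay 1917 nt beyond the sixth SRSF1 peak, 107054303 to 107054328 of score 9. The listed order along this RNA was thus 1 SRSF2 peak, 6 SRSF1 peaks, 1 SRSF2 peak and 3 SRSF1 peaks. SRSF1 had a score of 6 at each of its first 4 peaks, from 107046789 to 107053232, and its highest score of 11 at 107053250 to 107053279. On the 3′ side, SRSF1 scored 6 at 107058645 to 107058656, 6 at 107059771 to 107059787 and 10 at 107068378 to 107068397. Both SRSF2 scores were above the median SRSF1 score of the gene, 6.

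Dgka encodes diacylglycerol kinase alpha, which turns the signalling lipid diacylglycerol into phosphatidic acid. Its SRSF2 peaks were spread over 13.5 of the 20.2 kb that SRSF1 covered (chromosome 10, minus strand, 128160654 to 128180891). The SRSF1 peak nearest the 5′ end, 128180879 to 128180891, had a score of 6 and lay 6720 nt from the next peak of either protein. In the following stretch, SRSF2 at 128174149 to 128174181 (score 8) contained SRSF1 at 128174157 to 128174172 (score 7). Further on, SRSF2 at 128173315 to 128173338 (score 9) lay 31 nt from SRSF1 at 128173263 to 128173283, whose score of 10 was the highest of the gene. That pair was adjacent and did not overlap. At the 3′ end, SRSF1 at 128160654 to 128160672 (score 8) contained SRSF2 at 128160655 to 128160664 (score 7). Between these places, a stretch of 500 nt, 128167708 to 128168207, held 4 SRSF1 peaks with scores of 6, 6, 6 and 7 and no listed SRSF2 peak.

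Rprd1a encodes a protein that binds the tail of RNA polymerase II and takes part in removing its phosphates. SRSF1 bound it at 4 places over 41.9 kb (chromosome 18, minus strand, 24646701 to 24688577), and SRSF2 at the 2 of them nearest the 5′ end. At the 5′ end, 3 SRSF1 peaks lay within 152 nt, with scores of 5, 5 and 7, and the last of these, 24688426 to 24688446, shared 19 nt with SRSF2 at 24688428 to 24688463, of score 8. The middle stretch, 24665642 to 24666579, had the highest SRSF1 score of all 6 genes, 15 at 24666494 to 24666534. That SRSF1 peak contained SRSF2 at 24666511 to 24666523 (score 7), and an SRSF1 peak of score 5 at 24666559 to 24666579 lay beside it. The remaining SRSF2 peak, 24665359 to 24665372 of score 6, lay 269 nt from SRSF1 at 24665642 to 24665658, of score 6. SRSF1 alone was listed at 24663966 to 24663985 (score 7) and, 17177 nt further on, at 24646788 to 24646809 (score 8) and 24646701 to 24646723 (score 6). Rprd1a was the member with the proteins closest to each other, with a median of 127 nt from an SRSF1 peak to the nearest SRSF2 peak.

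**Figure D2:**
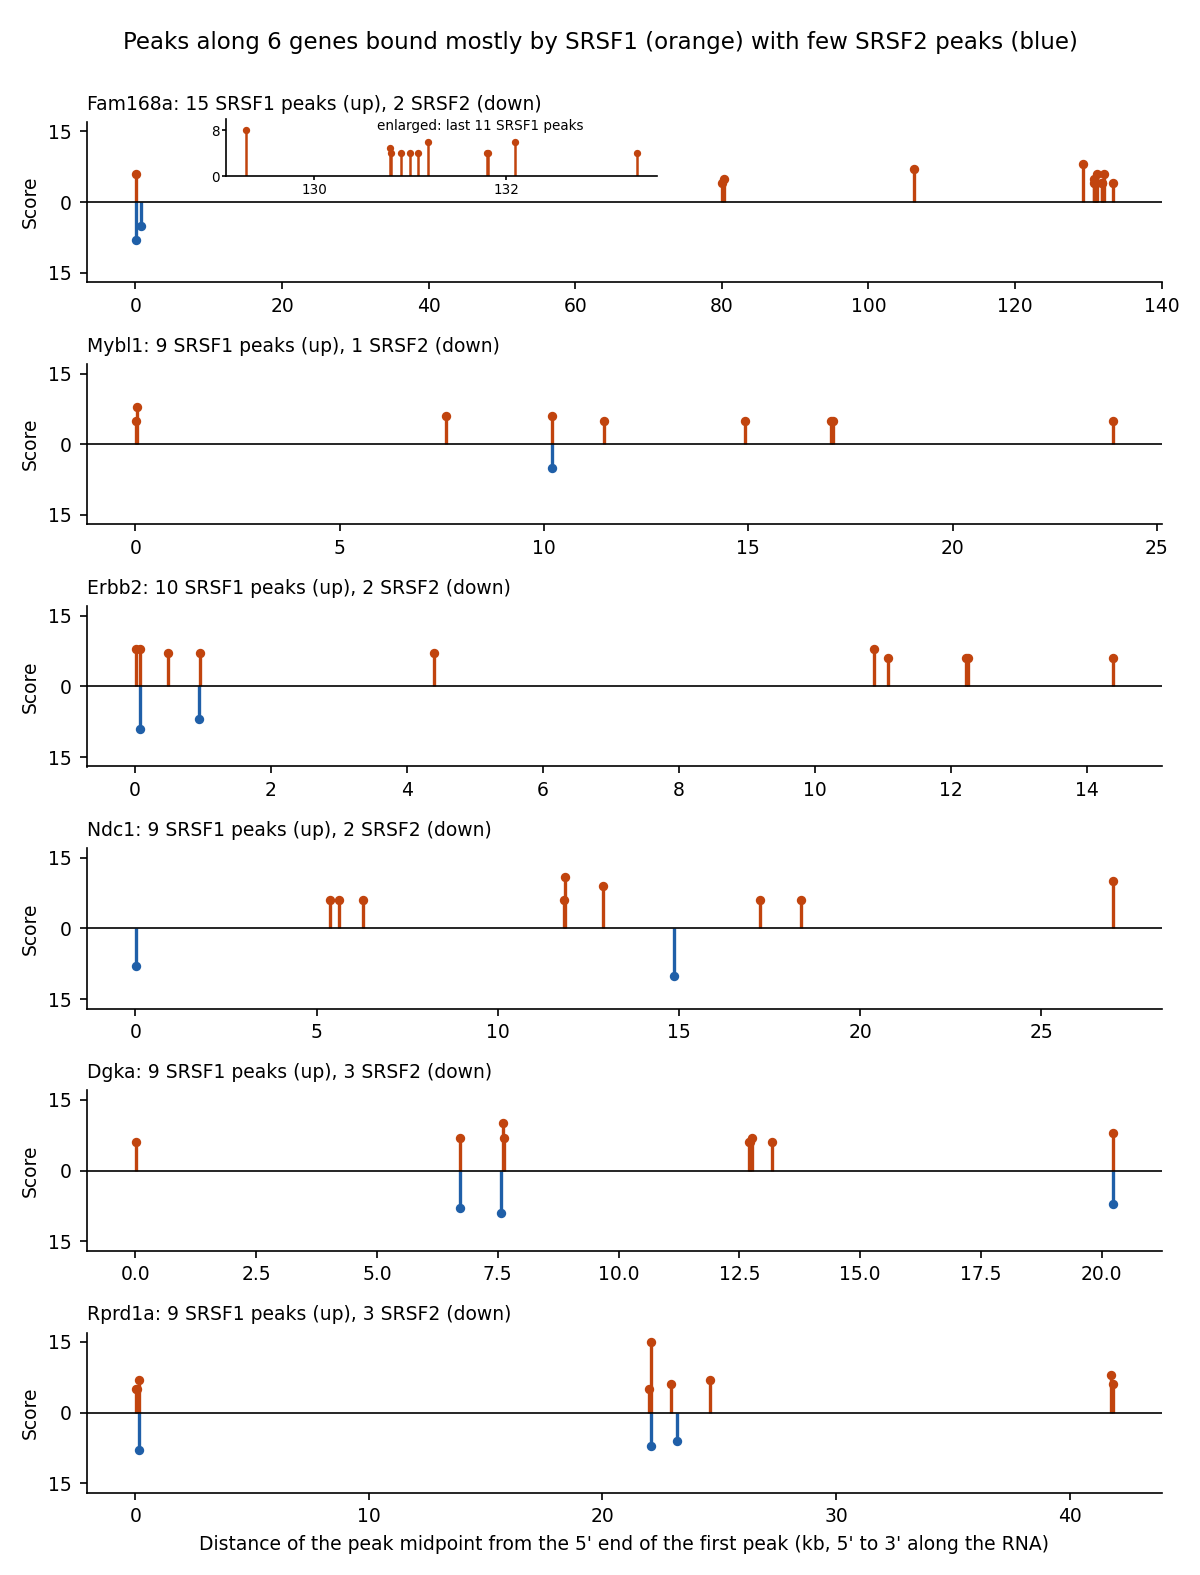
Peaks of each gene by distance from its first peak (horizontal, kb, 5′ to 3′), with SRSF1 scores drawn upward in orange and SRSF2 scores downward in blue; the small panel enlarges the last 11 SRSF1 peaks of Fam168a. SRSF2 lies at the 5′ end alone in Fam168a and Erbb2, at 1 inner site in Mybl1, and at several places in Ndc1, Dgka and Rprd1a.

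Across the 6 genes SRSF1 peaks formed 32 stretches, with a median of 5.5 per member beside 5 in the 528 genes. Of the 61 SRSF1 peaks, 18 stood alone as a stretch, and the rest shared a stretch with another SRSF1 peak. Of the 32 stretches, 7 had an SRSF2 peak within 1000 nt. The 25 stretches without one held 45 of the 61 SRSF1 peaks. That number follows in part from the choice of genes with few SRSF2 peaks. In the 528 genes, 1037 of 5433 SRSF1 peaks had no SRSF2 midpoint within 1000 nt. The largest stretch held 22.2% of SRSF1 peaks in Mybl1, 33.3% in Ndc1 and Rprd1a, 40% in Erbb2, 44.4% in Dgka and 60% in Fam168a. The median of the members was 36.7% and that of the 528 genes 37.5%. The range covered by SRSF1 was 14.4 kb in Erbb2, the shortest, and 133 kb in Fam168a, with a median over members of 22774 nt beside 23092 nt over the 528 genes. Single members could lie to either side. The largest stretch of Mybl1 held a smaller share than in all but 16.9% of the 528 genes, that of Fam168a a larger one than in 84.5%, and the range of Fam168a was longer than in 94.3%.

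Of the few SRSF2 peaks of the members, most lay on SRSF1 peaks. The choice of genes with many SRSF1 peaks for each SRSF2 peak favours this, so the shares are a description only. At least 1 nt on the same strand was shared by 8 of 13 SRSF2 peaks (61.5%, 31.6 to 86.1), beside 39.5% (38.3 to 40.7) of the SRSF2 peaks of the 528 genes, a value inside that interval. With scores of 8 or more in both lists it was 1 of 7 (14.3%, 0.361 to 57.9), beside 37.8% in the 528 genes. SRSF1 partners below 8 drop out of that count. Of the same 7 SRSF2 peaks, 4 lay on an SRSF1 peak of any score, beside 1949 of 4099 in the 528 genes. By gene, over all scores, SRSF2 peaks on an SRSF1 peak were 1 of 2 in Fam168a, 1 of 1 in Mybl1, 2 of 2 in Erbb2, 0 of 2 in Ndc1, and 2 of 3 in Dgka and in Rprd1a. The 8 pairs shared 7 to 19 nt, and their midpoints were at most 13 nt apart. SRSF1 had the higher score in 3 pairs, SRSF2 in 4, and 1 pair was equal. From the side of SRSF1, 8 of 61 peaks (13.1%, 5.84 to 24.2) met an SRSF2 peak, beside 44.7% in the 528 genes. That share follows in part from the few SRSF2 peaks by which the genes were chosen.

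Most SRSF1 peaks of the members were far from any listed SRSF2 peak. The genes were chosen for few SRSF2 peaks, so long distances follow in part from the choice and are given as a description. The median distance between midpoints on the same strand was 5604 nt, beside 30 nt in the 528 genes. Of the 61 SRSF1 peaks, 45 had no SRSF2 midpoint within 1000 nt, beside 1037 of 5433 in the 528 genes. By gene, the number farther than 1000 nt was 14 of 15 in Fam168a, 8 of 9 in Mybl1, 6 of 10 in Erbb2, 9 of 9 in Ndc1, 5 of 9 in Dgka and 3 of 9 in Rprd1a. This order differs from that of the shares, with Ndc1 alone at every peak. For SRSF2, 11 of 13 peaks (84.6%, 54.6 to 98.1) had an SRSF1 midpoint within 1000 nt, and the 2 that did not were those of Ndc1. In the 528 genes 76.9% of SRSF2 peaks had one, a value inside that interval. The choice of genes by their SRSF1 share favours a near SRSF1 peak as well.

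**Figure D3:**
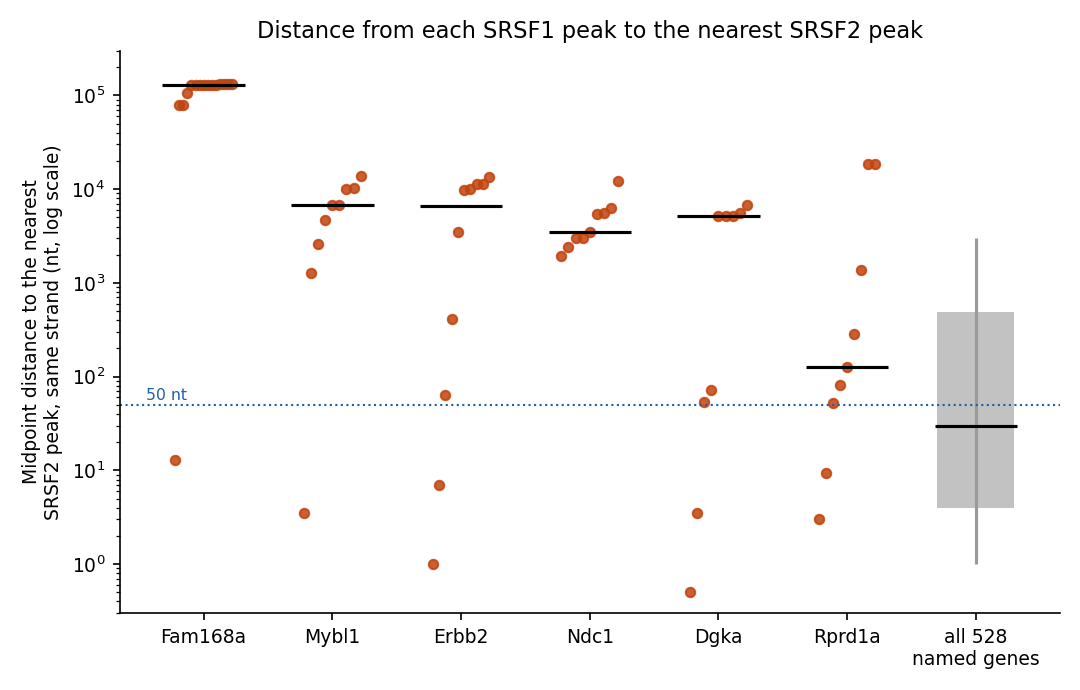
Distance from the midpoint of each SRSF1 peak to the nearest SRSF2 midpoint on the same strand (vertical, nt, log scale) by gene, with black bars at the medians. The grey box spans the middle 50% of 5433 SRSF1 peaks of the 528 named genes (4 to 494 nt) and the line the 10th to 90th percentile; medians of the 6 genes run from 127 to 130142 nt, where the named genes have 30 nt, and the choice of genes with few SRSF2 peaks favours long distances.

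The SRSF1 peaks of the members had low scores. Of the 61, 49 scored 4 to 7 and 12 scored 8 or more (19.7%), where 53.9% of the SRSF1 peaks in the 528 genes did. Of the 13 SRSF2 peaks, 7 scored 8 or more (53.8%), beside 66.0%. The median SRSF1 score was 4 in Fam168a, 5 in Mybl1, 6 in Ndc1 and Rprd1a, and 7 in Erbb2 and Dgka, beside a median over the 528 genes of 7. The median SRSF2 score was at least as high in every member, from 5 in Mybl1 to 9 in Ndc1, as it was in 82.2% of the 528 genes, whose median was 8. At scores of 4 to 7, SRSF1 had 49 peaks and SRSF2 6, a share of 89.1% (77.8 to 95.9), beside 54.2% in the 528 genes. At scores of 8 or more it had 12 and 7 (63.2%, 38.4 to 83.7), beside 41.7%. The unequal counts of the members thus lay mainly in peaks under the median score.

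**Figure D4:**
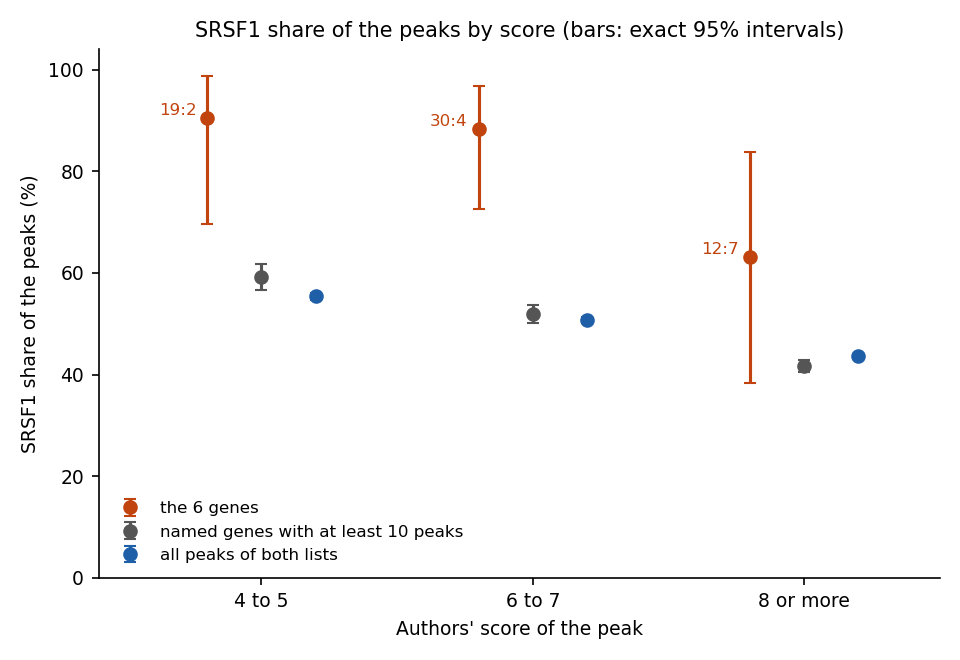
SRSF1 share of peaks (vertical, percent, with exact 95% intervals) in 3 classes of the authors' score, for the 6 genes (orange, numbers of SRSF1 and SRSF2 peaks beside the points), 528 named genes (grey) and all peaks (blue). In the 6 genes it was 90.5% and 88.2% in the 2 lower classes and 63.2% at scores of 8 or more, and it also declined with score in both larger sets.

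The lowest score listed differed between genes and proteins. For SRSF1 it was 4 in Fam168a, 5 in Mybl1 and Rprd1a, and 6 in Erbb2, Ndc1 and Dgka. For SRSF2 it was 5 in Fam168a and Mybl1, 6 in Rprd1a, 7 in Erbb2 and Dgka, and 8 in Ndc1, so it was higher than for SRSF1 in every member but Mybl1. It was also higher in 64.8% of the 528 genes, where the median lowest score was 6 for SRSF1 and 7 for SRSF2. Whether a threshold per gene acted here was not tested. Counting only peaks from the higher of both lowest scores left 36 SRSF1 and 13 SRSF2 peaks (73.5%, 58.9 to 85.1). Fam168a then had 7 and 2, Erbb2 6 and 2, Ndc1 3 and 2, Dgka 5 and 3, and Rprd1a 6 and 3, while Mybl1 kept 9 and 1 and was the only member whose interval then lay above the overall share.

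Some numbered peaks of the members were not in the lists. Peak numbers ran upward with the coordinate in each of the 5623 SRSF1 and 5638 SRSF2 units that have a name or cluster number and at least 2 peaks, so the place of a missing number can be bracketed. Up to the highest number listed, 8 of 69 SRSF1 numbers (11.6%) and 8 of 21 SRSF2 numbers (38.1%) were missing, beside 17.6% and 20.8% in the 528 genes. The genes were chosen by listed peaks, which favours many missing SRSF2 and few missing SRSF1 numbers, so these shares are a description. By highest number, Dgka had 9 and 6, Mybl1 11 and 3, Rprd1a 11 and 4, Erbb2 10 and 3, Ndc1 11 and 2, and Fam168a 17 and 3. The pooled share was 76.7% (66.6 to 84.9), and that of Dgka fell from 75% to 60% (32.3 to 83.7). Why a number is missing was not stated.

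The brackets give the places of missing numbers, and a missing number is not shown to be a bound site. The missing SRSF2 number of Fam168a lay between its listed SRSF2 peaks (107855336 to 107856057), and that of Erbb2 likewise (98283477 to 98284339), so all SRSF2 numbers up to the highest listed one fell within 761 nt in Fam168a and 887 nt in Erbb2. In Mybl1 2 numbers lay 3′ of the listed SRSF2 peak, on the side with 5 unshared SRSF1 peaks. In Dgka 2 lay between 128160664 and 128173315, and 1 lay 3′ of 128160655. The first of these intervals meets 7 SRSF1 peaks, among them the 4 of the stretch with no listed SRSF2 peak. In Ndc1 2 missing SRSF1 numbers lay between 107054328 and 107058645, the interval that holds its SRSF2 peak of score 10. In Rprd1a 2 missing SRSF1 numbers lay between 24663985 and 24665642, where its most 3′ SRSF2 peak is, and 1 SRSF2 number between 24666523 and 24688428. Missing numbers beyond the highest listed one cannot be counted.

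**Figure D5:**
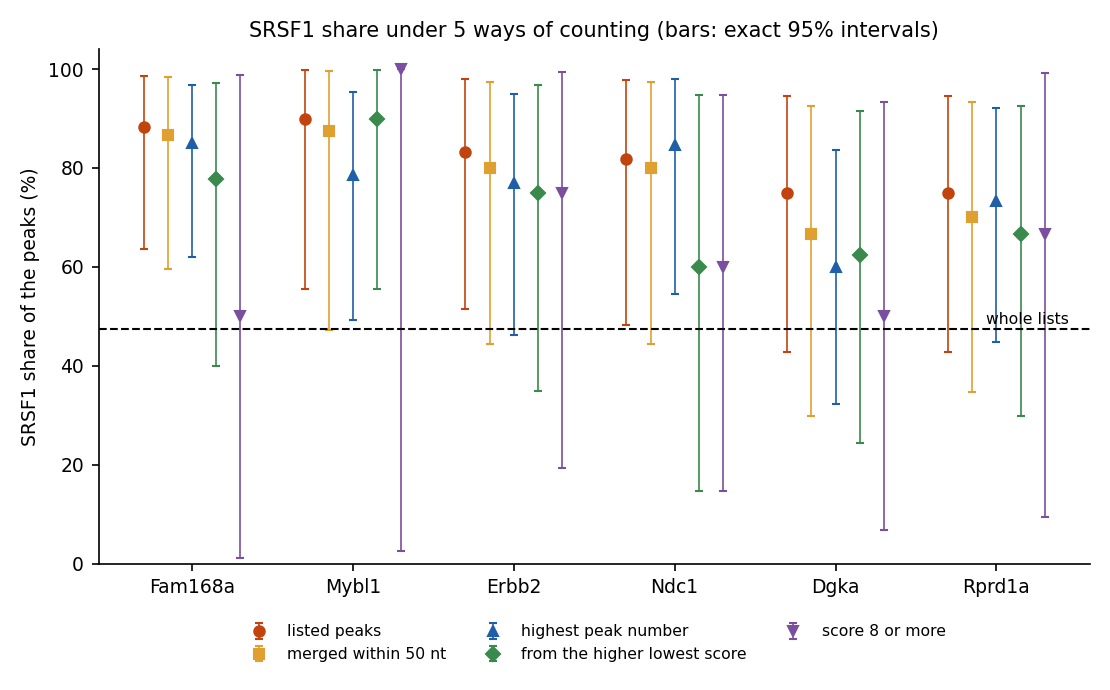
SRSF1 share of peaks (vertical, percent, with exact 95% intervals) of each gene under 5 ways of counting, with the overall 47.5% of listed peaks as a dashed line. Listed peaks give 75% to 90%, and all points stay above the dashed line, with the widest intervals at scores of 8 or more, where 1 to 5 peaks a gene are left.

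Pooled over the 6 genes, neighbouring units had an SRSF1 share near that of the whole lists, but single genes differed. Within 100 kb of the members' first and last peaks, other units on both strands held 60 SRSF1 and 53 SRSF2 peaks (53.1%, 43.5 to 62.5), an interval that includes the overall 47.5%. These peaks had no part in the choice of genes. The unnamed cluster nearest to Mybl1, on its strand at 9714611 to 9737455, had 11 and 13. The surroundings of Rprd1a had 11 and 12, with Slc39a6, a zinc transporter, at 3 and 4, and those of Dgka had 19 and 20. The surroundings of Erbb2 had 3 and 1, with Stard3, a lipid transfer protein, at 2 and 1, and those of Ndc1 had 1 and 1. Around Fam168a the count was 15 and 6 (71.4%, 47.8 to 88.7), an interval above the 47.5% of all peaks. Of these, 11 and 2 were in 1 cluster on the opposite strand at 108021786 to 108079055. The SRSF1 share of the members' chromosomes ran from 46.8% (chromosome 1) to 51.1% (chromosome 4).

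Few relatives of the members carry a name, and pooled over 5 lists the 17 that do had 58 SRSF1 and 71 SRSF2 peaks. Of 18 genes of ErbB receptors, their ligands and adaptors, 3 others had peaks: Cbl, a ubiquitin ligase that ends receptor signals, with 3 SRSF1 and 10 SRSF2 peaks, Ereg, the ligand epiregulin, with 1 of each, and Erbb3 with 1 and 0. Of 19 diacylglycerol kinases and lipid signalling genes, Dgkq had 2 of each and Prkd1, protein kinase D, 0 and 7. Of 29 nuclear pore genes, 6 others had 20 and 22 peaks together, with Nup85 at 11 and 10, Pom121 and Nup50 at 3 and 4 each, and Sec13 at 3 and 2. In 2 of those 6 SRSF1 had more peaks, in 4 SRSF2.

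Of 16 genes that act at the polymerase tail, Ctdp1, a phosphatase of that tail, was the other one with peaks, 4 and 3. Of 14 genes of the Myb family and the DREAM complex, which silences cell cycle genes, 5 others had 27 and 26 peaks together. Among these were Rbbp4, a histone chaperone, with 16 and 14, E2f5 with 4 of each, Mybl2, the close relative of Mybl1, with 2 and 5, and E2f4 with 4 and 2. Fam168b had no named peak. Over all these relatives 1 gene besides the members had at least 3 SRSF1 peaks for each SRSF2 peak, Erbb3 with a single peak. The 1.70% above is for genes with at least 10 peaks. Most relatives had fewer, so it is not a like background for them.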

How the data were processed

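The deposited data are 1 peak list per protein in BED format, on build mm9 per the submitters' processing notes. The score is the authors' whole number per peak. The meaning of the score, the aligner, the peak caller, its threshold and the read depth were not stated (not given in the sources used here). Starts were converted to count from 1. RefSeq accessions in the peak names were matched to symbols in a RefSeq table of GRCm38.p6, used for names only (2155 of 2169 matched). Shares, overlaps (at least 1 nt, same strand), midpoint distances and stretches were computed with Python 3.11.15, pandas 2.3.3 and SciPy 1.17.1. The functions were tested on simulated data, and overlap counts equalled those of bedtools 2.31.1. The members, gene lists and alternatives were chosen with earlier results of these data known. Named beside the members were the other genes among the 10 highest shares with ties, the 3 next below, up to 4 genes of each list with most peaks, and neighbours with peaks; 1 gene that this rule names is not reported here. With 1 library per protein no test between proteins was made.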

Additional observations from a re-analysis of the deposited data

How the results depend on the processing

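Most exact intervals of the values as listed rest on few peaks and are wide, so staying within one does not show stability. Counting all peaks inside a span could change nothing, since no other unit had peaks there. Of 69 recomputed values, 63 stayed within the exact interval of the value as listed and 6 left it. All 6 came from keeping only scores of 8 or more, which holds 51.6% of SRSF1 and 60.5% of SRSF2 peaks because of ties and leaves few peaks. The share of Fam168a was then 50% (1 peak of each protein), that of Mybl1 100% (1 and 0), and the pooled share 63.2%, beside an overall share of 43.6% under the same rule. The largest stretch became 100% in Fam168a and in Mybl1, each with 1 SRSF1 peak left, and the share of SRSF2 peaks on an SRSF1 peak fell to 14.3% (1 of 7). In that last case partners below 8 drop out, since 1 of the 8 pairs had both scores at 8 or more. In every alternative run the share of each member stayed above the overall share under the same rule, but its interval often did not. The interval lay above in 4 of 6 members as listed, 3 by highest peak number, 1 with peaks merged, 1 from the higher lowest score and 0 at scores of 8 or more. Merging peaks within 50 nt gave a pooled share of 79.0%, and weighting by score 80.0%. Counting from the higher lowest score was chosen after seeing the data. Peaks around the members gave 53.8% within 50 kb, 52.9% within 200 kb and 45.5% at scores of 8 or more. No paired analysis was possible because each protein has 1 library. The lists lack some numbered peaks and give no depth, so a place without an SRSF2 peak is not shown to be unbound.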
